A study of Mus musculus with 4 samples.

Results

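The Hox genes encode transcription factors that carry a homeodomain, the part that binds DNA. In the mouse they lie in clusters A, B, C and D on chromosomes 6, 11, 15 and 2, where genes with the same number (a paralog group) stand at corresponding positions and resemble each other more than their neighbours. Low numbers mark the 3′ end of a cluster, which in the embryo is active first and towards the head, and high numbers mark the 5′ end. In blood, genes of cluster A and several of cluster B are known for their activity in stem cells and early progenitors, and this activity falls as T cells mature. Hox proteins bind DNA together with homeodomain partners of the TALE class (Pbx, Meis and Pknox), and inside cells a cluster is kept silent by Polycomb complexes and held active by the MLL and Trithorax group.

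Here the Hox genes were described in TS1 and TS2, a pair of mouse lines of CD4-positive T lymphocyte origin per the labels. Both lines grew untreated under the same conditions, with murine interleukin-9 in the medium, and no genotype, strain or animal age is given for either. Each line gave 2 biological duplicates, called A and B, and each duplicate was read on 1 Affymetrix array. The values are normalized intensities, used as log2. Members were all genes whose symbol in the array's annotation is Hox, a cluster letter and a number, and which have a probe set of their own. Of 39 such genes in RefSeq, 37 were analysed, among 19938 genes in all, and each of the 37 was read by a single probe set. Hoxb8 shares its only probe set with Hoxb7, at log2 intensities of 5.10 and 5.26 in TS1 and 5.18 and 5.04 in TS2, and was kept out of all counts.

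The yardstick for a level was the median of all 35556 probe sets of the same array, which lay at a log2 intensity of 6.48 and 6.53 on the TS1 arrays and 6.47 and 6.49 on the TS2 arrays, A before B here and below. This median is no detection limit, and signal over background was not measured. Probe sets also differ in how strongly they respond, so levels of different genes show no order of transcript amounts. A difference is the TS2 mean less the TS1 mean in log2 units, over n = 2 arrays per line, and SE is its standard error. Adjusted p-values are from limma with Benjamini-Hochberg adjustment over all 19938 genes, and called means an adjusted p under 0.05. With so few arrays the smallest p of an exact permutation test (two-sided) is 0.333, and the p-values from limma measure only the spread between these duplicates.

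The label of the lines was set against T cell markers fixed for this purpose. Of 14 measured, 7 lay below the array median on every array, among them Cd4, the co-receptor in the lines' label, at 5.38 and 5.36 in TS1 and 5.15 and 5.28 in TS2. Bcl11b, Zap70 and Lat, a transcription factor, a kinase and an adaptor of T cells, lay above it on all 4 arrays. The called T cell markers went both ways. Of the 14, 1 was called higher in TS1 and 3 in TS2, or 28.6%, against 13.5% of all genes. Lat was higher in TS1, at 8.88 and 9.10 against 7.15 and 6.72 (difference -2.05, limma adjusted p = 0.00353), while Zap70 (difference 2.27), Cd247, a signalling chain of the same receptor (2.83), and Cd3e (6.21) were higher in TS2. Cd3e, which encodes part of the receptor complex for antigen, lay just below the median in TS1 (6.45 and 6.41) and far above it in TS2 (12.74 and 12.53). The TS1 duplicates disagreed for Cd3g, of the same complex, which lay far above the median on A and below it on B. Its values are given with the sums of the marker lists below.

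Most Hox genes were dim in both lines, and the few that differed were all higher in TS1. Of 37 genes, 30 lay below the median on all 4 arrays. The genes above the median on both TS1 arrays were Hoxa4, Hoxa6, Hoxb1, Hoxb3, Hoxb4 and Hoxc9, which is 6 genes. In TS2 they were Hoxa4, Hoxb1, Hoxb3, Hoxb4 and Hoxb9, which is 5 genes. Of all genes measured, 49.6% lay above it on both TS1 arrays and 49.9% on both TS2 arrays. No Hox gene reached the upper quartile on any array: the highest stood at the 61.9th percentile of probe sets on TS1 A (Hoxb4) and the 56.4th on TS2 A (Hoxb1). The difference between the lines was called for Hoxa5, Hoxa6, Hoxb4, Hoxc4 and Hoxc9, each 1.72-fold to 2.58-fold lower in TS2. These 5 of 37 are 13.5% of the Hox genes, and 13.5% of all genes were called. All 5 were higher in TS1, a direction in which 8.45% of all genes were called, and 0 were higher in TS2, where limma called 5.05%. The call share of the Hox genes therefore equals that of the array as a whole. At an unadjusted p under 0.05 the count stayed at 5, all higher in TS1; 29.4% of all genes passed that threshold in either direction. At an adjusted p under 0.01, Hoxa5 and Hoxa6 were left, with 2.46% of all genes past it in that direction. In whole cultures, fewer cells with a transcript and less of it per cell cannot be told apart.

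**Figure D1:**
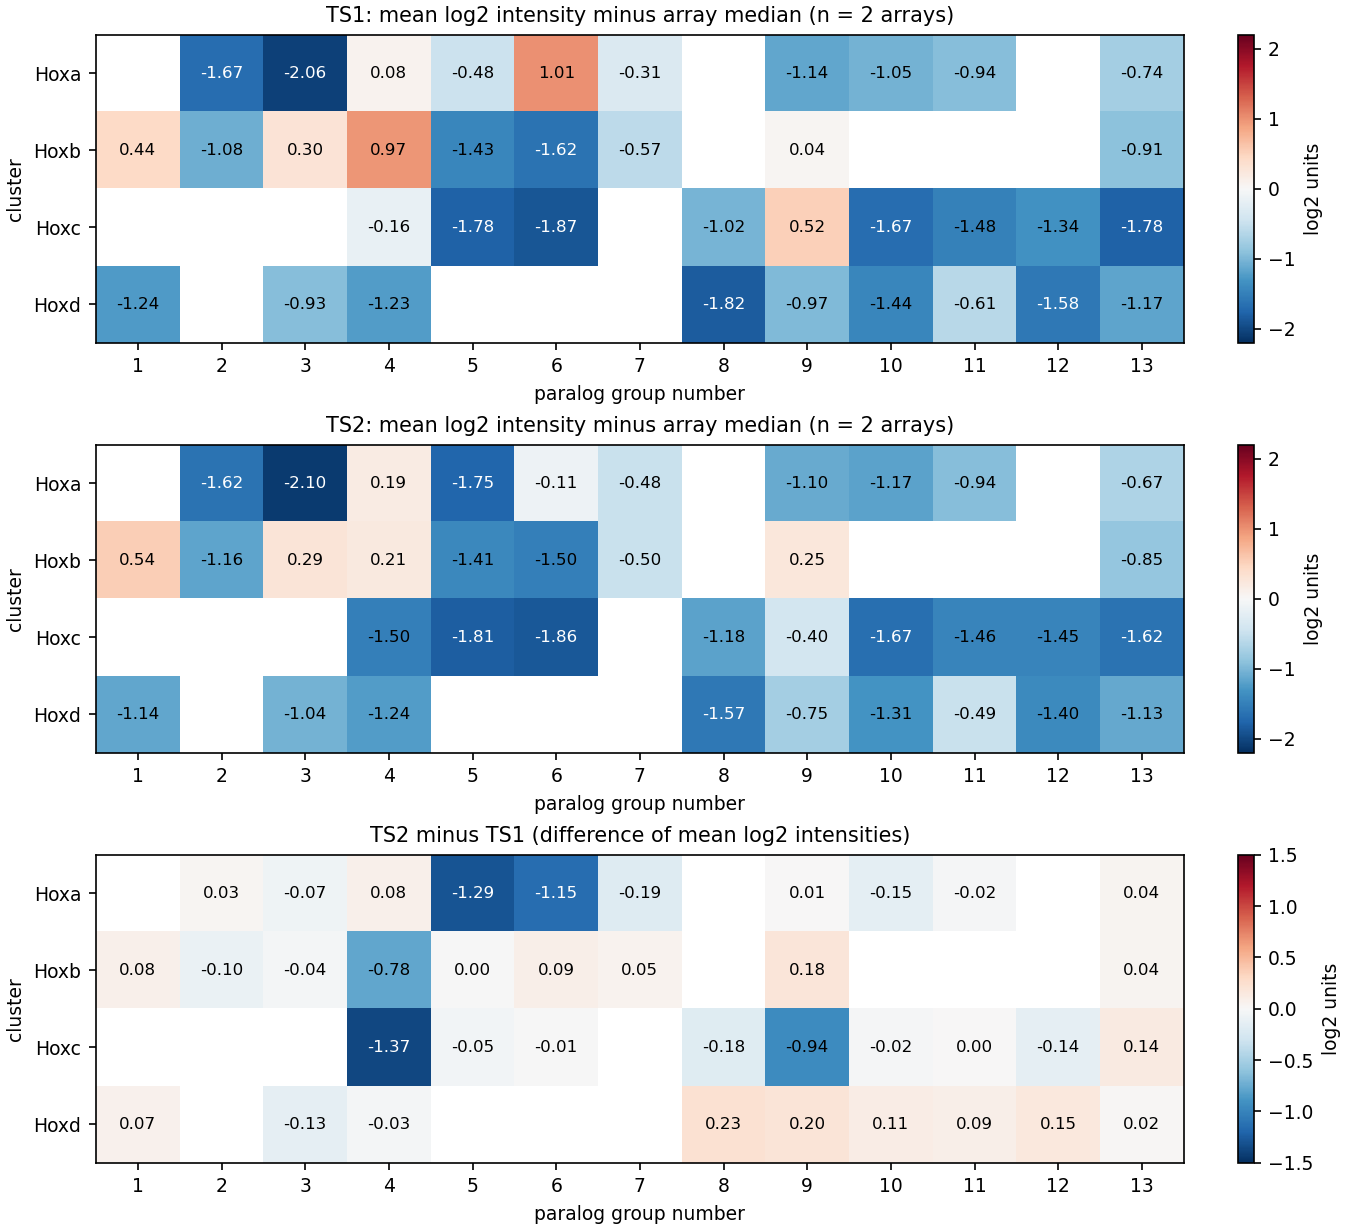
Heat maps with 1 row per cluster and 1 column per paralog group: mean log2 intensity minus the array median in TS1 (top) and TS2 (middle), each the mean of 2 arrays, and the difference TS2 minus TS1 (bottom), all in log2 units. Empty cells have no value here. Red cells in the upper maps are genes whose mean lies above the median, such as Hoxa6 at 1.01 and Hoxb4 at 0.97 in TS1. Hoxb9 in TS1 is on that side at 0.04, although its B array lay just below the median. The bottom map shows 5 dark blue cells, the called genes, among 32 pale ones.

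The upstream sequences of the called genes are shown because these genes were lower together in TS2. Each is the stretch of 250 bases before the annotated start of transcription in RefSeq (mouse build GRCm38.p6), 5′ to 3′ on the gene's own strand; Hoxc9 has no entry in the table used. Capitals mark matches on either strand to any of 6 motifs: TGATNNAT (the composite site of Pbx and Hox proteins), TGACAG (Meis), CCAAT (the CCAAT box), CACGTG (the E-box), TATAAA (the TATA box) and GGGCGG (the GC box). The windows are at chr6:52204588-52204837 (minus strand) for Hoxa5, chr6:52208673-52208922 (minus strand) for Hoxa6, chr11:96318017-96318266 (plus strand) for Hoxb4 and chr15:103034145-103034394 (plus strand) for Hoxc4. The Hoxc4 window lies inside the RefSeq gene model, which runs from 103018097 to 103036856. It therefore precedes an internal start, and the stretch before the start of the whole model is not shown.
Hoxa5: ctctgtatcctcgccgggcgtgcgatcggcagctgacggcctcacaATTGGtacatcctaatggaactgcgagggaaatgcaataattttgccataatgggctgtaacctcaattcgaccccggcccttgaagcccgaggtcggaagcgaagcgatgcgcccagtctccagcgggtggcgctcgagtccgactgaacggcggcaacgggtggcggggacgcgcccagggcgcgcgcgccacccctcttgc
Hoxa6: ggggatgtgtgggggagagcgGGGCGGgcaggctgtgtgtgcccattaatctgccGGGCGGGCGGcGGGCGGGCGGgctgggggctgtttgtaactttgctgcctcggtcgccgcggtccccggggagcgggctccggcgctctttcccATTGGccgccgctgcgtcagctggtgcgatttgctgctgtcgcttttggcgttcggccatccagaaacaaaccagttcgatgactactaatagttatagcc
Hoxb4: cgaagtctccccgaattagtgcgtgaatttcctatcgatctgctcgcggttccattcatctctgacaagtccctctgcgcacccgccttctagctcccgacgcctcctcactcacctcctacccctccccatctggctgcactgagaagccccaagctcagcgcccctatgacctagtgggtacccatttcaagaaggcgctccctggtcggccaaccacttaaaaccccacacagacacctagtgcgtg
Hoxc4: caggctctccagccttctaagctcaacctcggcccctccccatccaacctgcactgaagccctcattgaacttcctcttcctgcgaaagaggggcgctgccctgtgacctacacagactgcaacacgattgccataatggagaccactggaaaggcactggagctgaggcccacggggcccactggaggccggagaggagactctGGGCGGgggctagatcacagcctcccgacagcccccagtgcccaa
The windows of Hoxa5 and Hoxa6 each held 1 CCAAT box, read on the opposite strand, and that of Hoxa6 also held 5 GC boxes, of which neighbouring ones overlap. The Hoxc4 window held 1 GC box, and the Hoxb4 window held none of the 6 motifs. In windows of the same length before 32851 annotated starts of all genes, 33.8% held a CCAAT box, 32.7% a GC box, 15.9% the Meis motif, 12.4% a TATA box, 7.68% the composite site and 6.02% the E-box. Of the 24 Hox windows in the table, for 22 genes, 14 held a CCAAT box, 10 a GC box, 4 the composite site, 4 an E-box, 4 a TATA box and 2 the Meis motif. The share of G and C bases was 63.6% for Hoxa5, 65.2% for Hoxa6, 58.0% for Hoxb4 and 62.0% for Hoxc4, against a median of 58.6% over the Hox windows and 52.4% over all windows. The number of CpG dinucleotides was 28, 24, 14 and 8 in that order, against medians of 12.5 and 6. A match is only a match of letters, and no factor's binding was measured.

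In cluster A, the adjacent pair Hoxa5 and Hoxa6 set the lines apart, while their measured neighbours were not called. Hoxa6 had log2 intensities of 7.42 and 7.61 in TS1, against 6.38 and 6.35 in TS2. Both TS1 arrays stood about a log2 unit above the median and both TS2 arrays just below it. Hoxa6 was lower in TS2 by 1.15 on the log2 scale, or 2.22-fold (difference -1.15, SE 0.10, limma adjusted p = 0.00437). Hoxa5, which encodes a regulator of organ patterning and of blood progenitor fate, lay at 6.18 and 5.87 in TS1 and at 4.61 and 4.85 in TS2. It stayed below the median in both lines, and its TS1 and TS2 arrays did not overlap, as for 58.4% of all genes (difference -1.29, SE 0.15, 2.45-fold, limma adjusted p = 0.00897).

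The genes on either side of this pair were not called, and the 95% intervals of their probe set differences lay between -0.44 and 0.30. These intervals cover only the spread between duplicates, and do not bound a difference in transcript that a probe set fails to read. Hoxa4 lay just above the median in both lines, at 6.584 and 6.586 in TS1 and 6.68 and 6.66 in TS2, with TS2 the upper line and no overlap (difference 0.08, 95% interval -0.14 to 0.30, limma adjusted p = 0.601). Hoxa7 lay at 6.20 and 6.18 in TS1 and 5.93 and 6.06 in TS2, which do not overlap (difference -0.19, 95% interval -0.44 to 0.05, limma adjusted p = 0.256). Hoxa9, the best-known leukaemia gene of the family, was dim in both lines, with means of 5.37 and 5.38 and a 95% interval of the difference from -0.31 to 0.33. Hoxa2, Hoxa3, Hoxa10, Hoxa11 and Hoxa13 also stayed below the median on all 4 arrays and were not called. In RefSeq the long gene model of Hoxa3 spans Hoxa4, Hoxa5 and Hoxa6, so transcripts of that locus can share sequence with these genes. The probe set of Hoxa3 itself read 4.53 and 4.36 in TS1 and 4.37 and 4.38 in TS2, among the lowest Hox values.

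Cluster B held 3 of the 6 genes above the median in TS1 and 4 of the 5 in TS2, and Hoxb4 was its called gene. Hoxb4, known for expanding blood stem cells when overproduced, lay at 7.59 and 7.35 in TS1 and at 6.65 and 6.73 in TS2. All 4 values exceeded the median, and the lower TS1 array exceeded the higher TS2 array. Arrays of the lines were likewise apart, in either direction, for 58.4% of all genes. The difference was -0.78 (SE 0.12, 1.72-fold, limma adjusted p = 0.0174). This call did not survive leaving out either TS2 array (adjusted p = 0.102 without A and 0.0789 without B).

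Other genes of cluster B were above the median in at least 1 line without a call. Hoxb1, a gene of the embryonic hindbrain, had values of 6.78 and 7.11 in TS1 and 7.01 and 7.03 in TS2, so the lines overlapped (difference 0.08, 95% interval -0.27 to 0.42, limma adjusted p = 0.771). Hoxb3, whose RefSeq model spans Hoxb4, had 6.82 and 6.79 in TS1 and 6.77 on both TS2 arrays (difference -0.04, 95% interval -0.25 to 0.18, limma adjusted p = 0.839). Hoxb9 straddled the median in TS1, at 6.57 and 6.52, and lay above it in TS2, at 6.72 and 6.74 (difference 0.18, 95% interval -0.04 to 0.40, limma adjusted p = 0.243). Hoxb2, Hoxb5, Hoxb6, Hoxb7 and Hoxb13 stayed below the median on every array.

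Cluster C held a called gene at each of 2 separate positions, Hoxc4 at the 3′ end and Hoxc9 further 5′. Hoxc4, a gene active in lymphocytes, lay at 6.18 and 6.52 in TS1 and at 5.14 and 4.82 in TS2. It was the most different Hox gene (difference -1.37, SE 0.17, 2.58-fold, limma adjusted p = 0.0108), although the higher TS1 array ended just below its median. Hoxc9 lay at 7.17 and 6.88 in TS1 and at 6.08 on both TS2 arrays. It stood above the median in TS1 and below it in TS2 (difference -0.94, SE 0.12, 1.92-fold, limma adjusted p = 0.0126). Its adjusted p rose to 0.0708 when TS2 A was left out and to 0.0685 when TS2 B was. The genes between these, Hoxc5, Hoxc6 and Hoxc8, were below the median on every array, with differences of -0.05, -0.01 and -0.18 that were not called. Hoxc10, Hoxc11, Hoxc12 and Hoxc13 were dim as well.

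**Figure D2:**
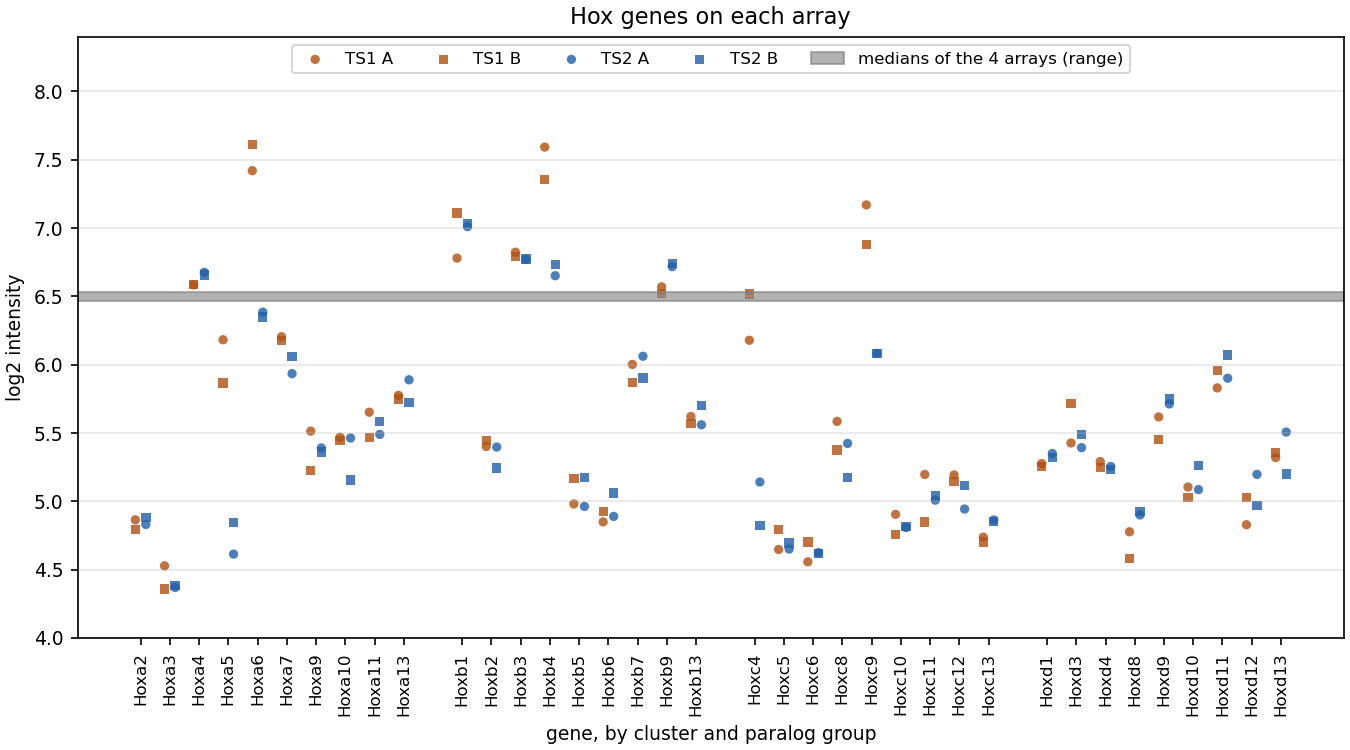
Log2 intensity (vertical axis) of each of the 37 Hox genes (horizontal axis, by cluster and paralog group) on the 4 arrays: orange for TS1, blue for TS2, circles for duplicate A and squares for B; the grey band spans the medians of the arrays, 6.47 to 6.53. Hoxa6, Hoxb4 and Hoxc9 show orange symbols above the band and clear of the blue ones, and Hoxa5 and Hoxc4 show the same separation below or at it.

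Cluster D was dim throughout. Its 9 genes, Hoxd1, Hoxd3, Hoxd4 and Hoxd8 to Hoxd13, ranged from 4.58 to 6.07 over all arrays, all below the median. None was called by limma, against 13.5% of all genes, and 0 of 9 passed an unadjusted p under 0.05, against 29.4%. Arrays separated towards TS2 for 3 of the 9 (29.1% of all genes) and towards TS1 for 0 (29.3%). With 9 genes, whether the cluster departs from these shares was not tested. The widest difference was that of Hoxd8, at 4.78 and 4.58 in TS1 and 4.90 and 4.92 in TS2 (difference 0.23, 95% interval -0.04 to 0.50, limma adjusted p = 0.224). This was also the widest among the 32 Hox genes without a call.

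Genes above the median were also counted by position along the clusters, with no test of a trend. Of 11 measured genes of paralog groups 1 to 4, 4 lay above the median on all 4 arrays, and these were Hoxa4, Hoxb1, Hoxb3 and Hoxb4. Of 10 genes of groups 5 to 8, Hoxa6 did so in TS1 and 0 did so in TS2. Of 16 genes of groups 9 to 13, Hoxc9 did so in TS1 and Hoxb9 in TS2. The 12 genes of groups 10 to 13, which pattern the hind end and the limbs, ranged from 4.70 to 6.07 and were all below it. The calls fell in groups 4 (2 of 4 measured genes), 5 (1 of 3), 6 (1 of 3) and 9 (1 of 4), so in no paralog group was every measured gene called. Over all genes 13.5% were called, and groups of 3 or 4 genes are too small to set against that share.

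The differences of the called genes stood clear of the scatter of all others. The 5 called differences ran from -1.37 to -0.78. The 32 others ran from -0.19 (Hoxa7) to 0.23 (Hoxd8), with 95% intervals that all lay between -0.52 and 0.50. The largest gap between duplicates of any Hox gene was 0.35, for Hoxc11 in TS1, and the 5 called genes were the ones whose line difference exceeded it. The calls were made from these same differences and duplicate gaps, so this separation is no independent support for them. For 15 of the 37 genes, or 40.5%, every array of one line lay above every array of the other, against 58.4% of all genes. TS1 was the upper line for 9 of these, including the 5 called (29.3% of all genes), and TS2 for 6 (29.1% of all genes). The median difference was -0.0032 over the 37 Hox genes and 0.013 over all genes.

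**Figure D3:**
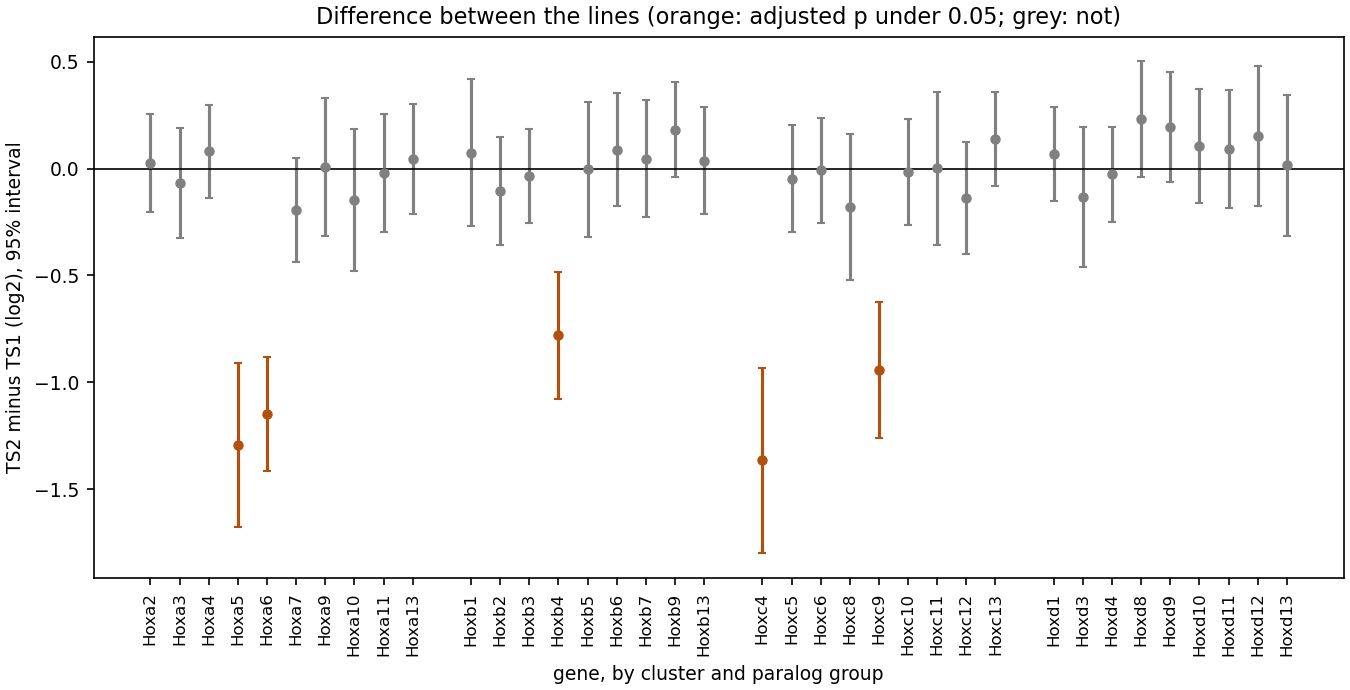
Difference TS2 minus TS1 in log2 units (vertical axis) with its 95% interval from limma (bars) for each of the 37 Hox genes (horizontal axis), n = 2 arrays per line; orange marks an adjusted p under 0.05. The 5 orange points lie between -1.37 and -0.78, while the 32 grey points lie between -0.19 and 0.23.

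Homeobox genes outside the clusters were more often above the median than Hox genes. Of 130 measured in a fixed list, 45 lay above it on both TS1 arrays (34.6%, against 16.2% of the Hox genes) and 44 on both TS2 arrays (33.8%, against 13.5%). In this list 7 genes were called higher in TS1 and 1, Lhx2, in TS2, so 6.15% were called, against 13.5% of all genes, of which likewise more were called higher in TS1 (8.45%) than in TS2 (5.05%). The widest differences in the list were those of Six4 (difference -2.07), Onecut2 (-1.96), Pou4f1 (-1.92) and Onecut3 (-1.49), which encode developmental transcription factors. Dlx1, Dlx6 and Pax6 were the others higher in TS1.

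**Figure D4:**
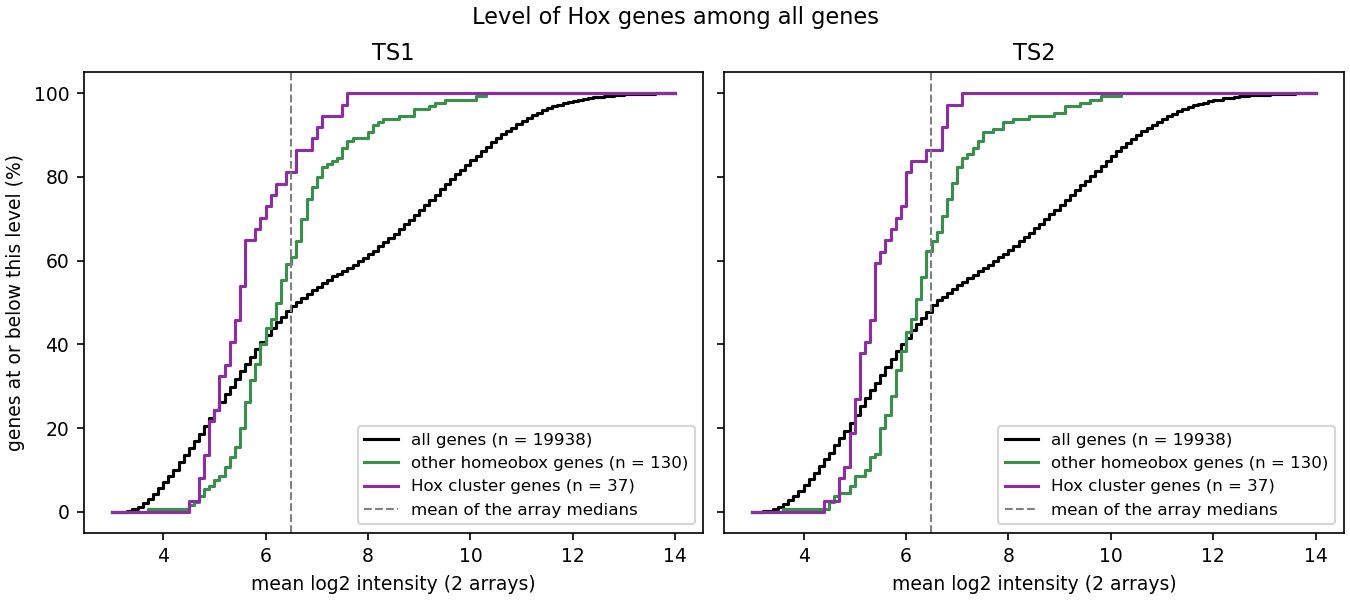
Share of genes (vertical axis, percent) whose mean log2 intensity over 2 arrays is at or below the level on the horizontal axis, in TS1 (left) and TS2 (right), for all 19938 genes (black), 130 other homeobox genes (green) and 37 Hox genes (purple); the dashed line is the mean of the array medians. The purple curve reaches 100% below a level of 8 in both lines, while the black curve goes on beyond 12.

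Among the partners of Hox proteins, Meis1 was higher in TS1 as well. Meis1, which with Hoxa9 drives leukaemia in mice, lay at 7.65 and 7.34 in TS1 and at 6.72 and 6.70 in TS2. All 4 values were above the median, and TS1 and TS2 did not overlap, as for 58.4% of all genes (difference -0.79, SE 0.13, 1.73-fold, limma adjusted p = 0.0228). It was no longer called when TS2 A (adjusted p = 0.111) or TS2 B (adjusted p = 0.110) was left out. Of 8 measured TALE genes, 1 was called (12.5%, against 13.5% of all genes) and 7 lay above the median on all arrays. Pbx3, another partner, lay at 11.03 and 11.18 in TS1 and 10.56 and 10.82 in TS2 (difference -0.42, limma adjusted p = 0.106). Pknox2 was the one below the median, from 4.70 to 5.04.

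Most genes of the machinery that silences or maintains Hox clusters lay above the median in both lines. Of 54 measured, 8 were called, or 14.8%, which is near the 13.5% of all genes. Ezh2, the methyltransferase of Polycomb repressive complex 2, had means of 11.48 in TS1 and 11.55 in TS2 (difference 0.07, limma adjusted p = 0.687). Kmt2a, the MLL gene, had means of 10.08 and 10.02 (adjusted p = 0.680), and Bmi1, a core member of complex 1, had 10.35 and 10.31 (adjusted p = 0.884). Of 23 measured MLL and Trithorax group genes, all 23 lay above the median on all arrays, and 2 were called, both higher in TS1. These were Kdm6a, which removes the methyl mark of Polycomb (difference -0.98, SE 0.09, limma adjusted p = 0.00493), and Dpy30, a shared subunit of MLL complexes (difference -0.56, adjusted p = 0.0491).

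Polycomb subunits differed in both directions, and 17 of 19 genes of complex 1 and 11 of 12 of complex 2 lay above the median on all arrays. Of 19 measured genes of complex 1, 3 were higher in TS1 and 1 in TS2, directions in which 8.45% and 5.05% of all genes were called. Scmh1, a Polycomb group protein, had the widest difference, at 8.34 and 8.23 in TS1 and 5.16 and 5.36 in TS2 (difference -3.03, SE 0.11, 8.16-fold, limma adjusted p = 0.000405). Phc1, another member of complex 1, differed by -1.11 and Rnf2, its ubiquitin ligase, by -0.61, while Cbx2, which reads the methyl mark, was higher in TS2 by 0.65 (adjusted p = 0.0475). Of 12 measured genes of complex 2, Rbbp7, a histone-binding subunit, was higher in TS1 (difference -0.90, adjusted p = 0.00628). Phf19, an accessory subunit, was higher in TS2 (difference 1.49, adjusted p = 0.0222). The calls of Rnf2, Cbx2 and Dpy30 were lost in the fit with a replicate block (adjusted p = 0.0518, 0.0709 and 0.0683) and without TS1 B, TS2 A or TS2 B, and that of Phf19 without TS2 A or TS2 B. Cbx2 was also lost after centring each array on its median (adjusted p = 0.0570), and Dpy30 after renewed quantile normalization (adjusted p = 0.0518).

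**Figure D5:**
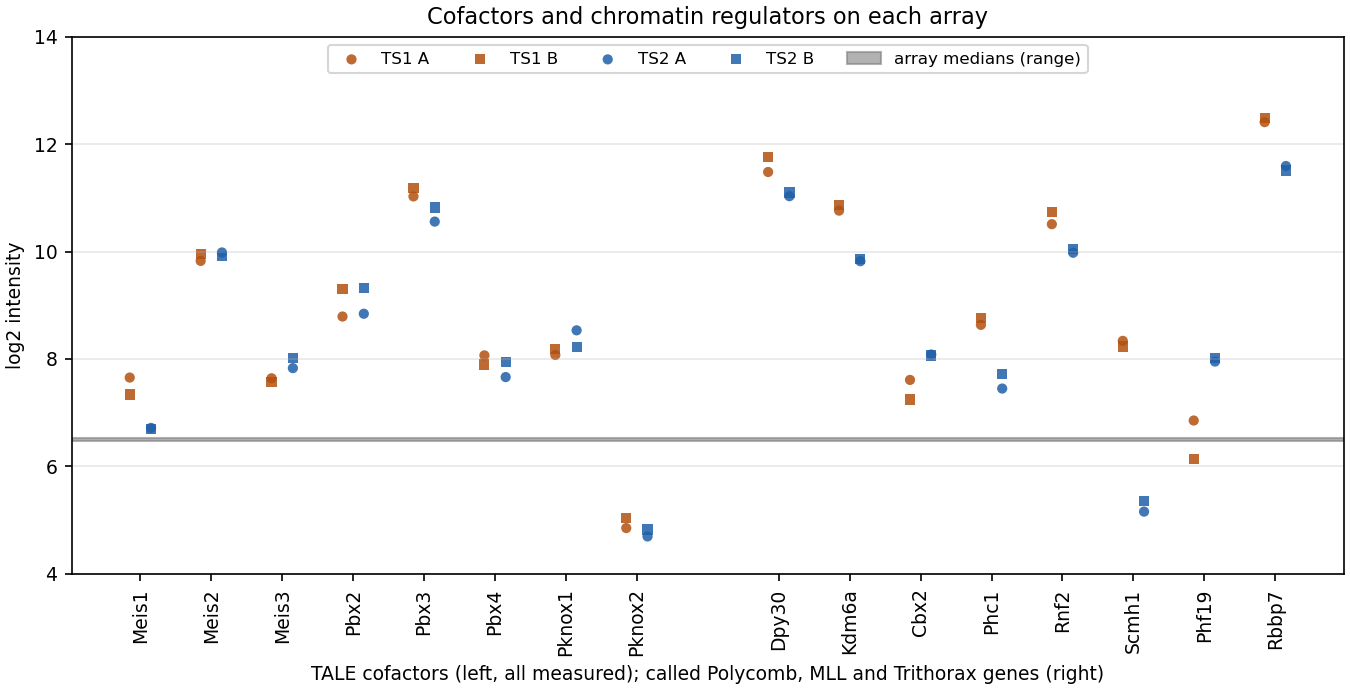
Log2 intensity (vertical axis) on the 4 arrays, orange for TS1, blue for TS2, circles for duplicate A and squares for B, of the 8 measured TALE genes (left) and the 8 called Polycomb, MLL and Trithorax genes (right); the grey band spans the array medians. Meis1 and Scmh1 are lower in TS2, at 6.72 and 6.70 and at 5.16 and 5.36, while Cbx2 and Phf19 are higher there.

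Of 28 measured genes that flank or lie within the clusters, 1 was called (3.57%, against 13.5% of all genes). This was Cbx1 beside cluster B (difference -0.47, limma adjusted p = 0.0445), and this call was lost with any array left out, the replicate block, centring or renewed quantile normalization (adjusted p = 0.0628 to 0.221). Evx1 and Evx2, homeobox genes at the 5′ ends of clusters A and D, had differences of 0.15 and 0.13 that were not called. Skap2, a signalling adaptor beyond the 3′ end of cluster A, differed by -0.37 (adjusted p = 0.126), and Skap1, beyond cluster B, by 0.14 (adjusted p = 0.350). The microRNA genes inside the clusters were read at 3.30 to 3.68 for Mir10a and Mir10b and at 4.07 to 5.41 for Mir196a-1, Mir196a-2 and Mir196b, and Mir615, within Hoxc5, at 6.90 to 7.14. These microRNA genes were not called, with limma adjusted p-values from 0.144 to 0.994. The antisense transcript Hoxaas2 of cluster A lay at 5.67 and 5.66 in TS1 and 5.39 and 5.38 in TS2 (difference -0.28, adjusted p = 0.0974).

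Of the activators upstream of Hox genes, the caudal genes were not called. Cdx1 had means of 6.81 in TS1 and 6.90 in TS2, Cdx2 had 5.49 and 5.83, and Cdx4 had 3.68 and 3.58. Retinoic acid switches on 3′ Hox genes in the embryo. Aldh1a1, an enzyme that makes retinoic acid, lay at 5.57 and 5.37 in TS1 and 10.02 and 10.58 in TS2 (difference 4.83, SE 0.20, limma adjusted p = 0.000553). Rarg, which encodes a receptor for it, had a difference of 0.99 (SE 0.09, adjusted p = 0.00437). Aldh1a1 and Rarg were the 2 higher in TS2 of 24 measured genes in the fixed list of upstream activators. In that list 12.5% were called, against 13.5% of all genes. Znhit3 was its 1 gene higher in TS1 (difference -0.67, limma adjusted p = 0.0453), a call lost under 6 alternatives. Whether Znhit3 acts on Hox genes was not tested.

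Single markers of other blood cells differed in the same direction as the 5 Hox genes, and their part in the result was not tested. Of 11 measured stem and progenitor markers, Gfi1b, a transcription factor of early blood cells (difference -3.34), and Meis1 were higher in TS1, and 8 were not called. In this list 27.3% were called, against 13.5% of all genes. Mecom was higher in TS2 by 1.01, a sign that turned to -0.13 over the mean of its probe sets. The median difference of the 11 was 0.14. The arrays separated towards TS2 for 5 of them (29.1% of all genes) and towards TS1 for 2 (29.3% of all genes). Their summed intensity was 2391 to 2489 in TS1 and 1313 to 1328 in TS2, an order that Gfi1b set: the other 10 summed to 971 to 976 in TS1 and 1175 to 1176 in TS2. Of the 11, 5 lay above the median on all 4 arrays and 4 lay below it on all of them. Cd34 and Flt3, which define early progenitors, were among those below.

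Of 9 measured mast cell and basophil markers, Gata2, a transcription factor (difference -4.65), and Kit, a growth factor receptor (-1.90), were higher in TS1. These were 22.2% of the list, and 8.45% of all genes were called in that direction. The arrays separated towards each line for 3 of the 9, against 29.3% of all genes towards TS1 and 29.1% towards TS2. The sums of the 9 overlapped, at 9961 to 11489 in TS1 and 9233 to 12790 in TS2. The B cell, myeloid and fibroblast lists each held 1 called gene, higher in TS1. That is 11.1%, 7.14% and 8.33% of the genes measured, near the 8.45% of all genes called in that direction. Ebf1, a B cell transcription factor, differed by -1.17 (limma adjusted p = 0.0135, and 0.0561 without TS1 B). Cd68, a lysosomal protein of macrophages, differed by -0.64 (adjusted p = 0.0261, with the call lost under 4 alternatives at 0.0534 to 0.136). Pdgfra, a receptor of fibroblasts, differed by -1.78 (adjusted p = 0.0325, with the call lost under 3 alternatives at 0.0572 to 0.141). The sums ran from 393 to 413 in TS1 and from 390 to 397 in TS2 for 9 B cell markers, all of them below the median on every array. They ran from 771 to 773 and from 662 to 663 for 14 myeloid markers, and from 685 to 794 and from 661 to 668 for 12 fibroblast markers. Each sum includes the called gene of its list. In the order B cell, myeloid and fibroblast, arrays separated towards TS1 for 2, 4 and 1 genes (29.3% of all genes). Towards TS2 they separated for 4, 1 and 6 (29.1% of all genes). The median differences of these lists were 0.05, -0.03 and 0.10. The 14 T cell markers summed to 1840 to 3015 in TS1, where Cd3g lay at 10.52 on A and 6.07 on B, and to 11528 to 13170 in TS2.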

How the data were processed

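The deposited values of TS1 and TS2 (2 arrays each) are linear-scale intensities of each probe set, made by the authors with Affymetrix Expression Console and RMA per the submitters' processing notes, with no version stated. RMA includes a normalization between arrays, which removes most of a shift shared by most genes. Values ran from 5.98 to 23157 and log2 was taken, with no pseudocount, since 0 were missing or not positive.

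Probe sets were named by the platform annotation (21789 with 1 gene symbol, 1621 with several, 12146 with none), and 21698 of the single-gene symbols were updated by Entrez number through RefSeq (GRCm38.p6). The brightest single-gene probe set stood for each of 19938 genes; no Hox gene had a second one. All arrays entered 1 model with the line as factor in limma 3.58.1 (lmFit, eBayes, R 4.3.3; 2 residual and 3.03 prior degrees of freedom), which was tested on simulated data. Promoter windows were matched by symbol to 22 Hox genes.

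Some items are not reported here. The members and lists were chosen with earlier results of these data known. Hox genes above the median or called are given in full. Of each list, up to 4 called genes with the widest differences are named, besides Meis1, Pbx3, Kmt2a, Ezh2, Bmi1, Cdx1, Cdx2, Cdx4, Skap1, Skap2, Evx1, Evx2, Cd4 and Cd3e; other names were picked with their values in view. Alternatives tried were a block for the replicate letter, leaving out each array, a trended or robust prior variance, median centring, renewed quantile normalization, the dimmest 50% of genes left out, the mean of a gene's probe sets, an adjusted p under 0.01, and other yardsticks than the array median.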

Additional observations from a re-analysis of the deposited data

How the results depend on the processing

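The count of 5 Hox genes called held, with the same genes, under the replicate block, both other prior variances, centring, renewed quantile normalization and the mean of probe sets. It was 3 to 5 with an array left out, 2 at an adjusted p under 0.01 (Hoxa5 and Hoxa6) and 2 with the dimmest 50% of genes left out, where Hoxa5, Hoxc4 and Hoxc9 were no longer tested. The count over all genes, 2691, was 1666 with the replicate block, 807 at an adjusted p under 0.01 and 979 to 2198 with an array left out. The letters A and B share no stated origin, and the deviations of same-lettered arrays correlated at -0.029 over genes. Of the Hox genes, 6 lay above the median in TS1 (6 to 7 with an array left out) and 5 in TS2 (5 to 5), and 0 lay above the upper quartile in either line. With the median of genes as the yardstick, 5 did so in TS1, without Hoxa4, and 5 in TS2. Signs turned for genes that were not called: Hoxb1 (-0.090 to 0.24 with an array left out), Hoxb3 (0.0084 with quantile normalization), Kmt2a (0.012 with quantile normalization), Bmi1 (-0.15 to 0.074 with an array left out, 0.034 with quantile normalization) and Cdx4 (-0.21 to 0.012 with an array left out). Among called genes, the sign of Mecom turned (-0.13 over the mean of its probe sets). The cause was not tested. A lone array of a line borrows the spread of the other line, and fewer degrees of freedom are left. Centring moved the median of all genes by 0.024 and quantile normalization by 0.0063. With no detection calls, how far the dim Hox genes stand over background is unknown.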

Other observations

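A fixed list held 19 genes reported as regulated by Hox9 proteins and Meis1 in blood cells, of which 18 were measured. Of these, 2 were higher in TS1 and 3 in TS2, directions in which 8.45% and 5.05% of all genes were called. Angpt1, a growth factor of blood vessels and stem cells, lay at 6.74 and 6.15 in TS1 and at 4.39 and 4.22 in TS2 (difference -2.14, limma adjusted p = 0.00573), and Meis1 was the other. Higher in TS2 were Id2, an inhibitor of helix-loop-helix factors (difference 1.55, adjusted p = 0.00197), Trib2, a pseudokinase (0.96, adjusted p = 0.00649), and the cell cycle kinase Cdk6 (0.81, adjusted p = 0.0292). The call of Cdk6 was lost without TS1 B, TS2 A or TS2 B, with adjusted p-values of 0.0732, 0.143 and 0.0856.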
